A study of Mus musculus with 2 samples.

Results

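Accessible chromatin was described at 32 imprinted genes and at their control regions, out of 31868 genes of the same annotation classes in GENCODE release M21. The genes were chosen by name as imprinted in mouse and not by their peak values, although earlier results of these data were known. They comprise 25 protein-coding genes and 7 noncoding genes. ATAC-seq, in which a transposase inserts adapters into open DNA, had been run on G1E-ER4 cells, a mouse erythroid line that descends from Gata1-null cells and carries GATA1 fused to the ligand-binding part of the estrogen receptor. Replicates 1 and 2 each came from 50000 cells held for 24 hours in 17beta-estradiol at 10 nM, labelled as male, C57BL/6J and postnatal. There was 1 group, with no untreated cells and no cells of another genotype, so no value below is a change caused by estradiol or by GATA1. The data come from 1 line, and the labels call the libraries biological replicates without naming separate cultures, so the spread between them may be technical.

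An imprinted gene is transcribed mainly from the chromosome inherited from one parent. The choice is carried by an imprinting control region, a CpG-rich stretch whose DNA methylation is set in the egg or the sperm and is kept in the embryo, where the zinc finger proteins ZFP57 and ZFP445 with TRIM28 and DNMT1 protect it. The unmethylated copy can act as the promoter of a noncoding RNA that silences its neighbours, as at Kcnq1ot1 and Airn, or as a CTCF-bound insulator, as upstream of H19. The peak lists used here pool both parental chromosomes, so an accessible region may lie on either copy or on both.

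The main list, called the joint list here, holds 20080 accessible regions that the authors found reproducible between the replicates at an irreproducible discovery rate (IDR) of 0.05. A looser replicated list holds 46345 regions, and the lists of replicates 1 and 2 on their own hold 14012 and 15564 regions that passed the same IDR. Read depth is unknown, so a missing region means that none was called at the depth of these libraries. Of 9 erythroid markers, 8 had a region within 1 kb of a start site, among them Gata1, Klf1, Slc4a1 and both globin genes, and Alas2 had 3 distal regions and none at its start. Of 3 liver markers 0 had such a region, of 3 neuron markers 1 (Tubb3) and of 2 muscle markers 1 (Ckm).

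Some regions of the clusters described below are shown first, with 100 bases on either side of the summit, the strongest point of each. They are on the plus strand of mm10, read from the RefSeq copy of the assembly. The first lies at the start of Kcnq1ot1 (chr7:143296510-143296710), the strongest of the control regions, with CpG pairs in capitals. The second, from an intron of Peg3 (chr7:6729469-6729669), has the letters AAGATGGC of the transcription factor YY1 in capitals. The third, from an intron of Snrpn beside its start (chr7:60004265-60004465), has the letters TGCCGC read by ZFP57, here on the minus strand, in capitals.
Kcnq1ot1 start: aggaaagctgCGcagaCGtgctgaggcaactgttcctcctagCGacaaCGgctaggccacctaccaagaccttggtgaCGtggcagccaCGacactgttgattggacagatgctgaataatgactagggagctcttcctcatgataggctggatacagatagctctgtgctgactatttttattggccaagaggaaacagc
Peg3 intron: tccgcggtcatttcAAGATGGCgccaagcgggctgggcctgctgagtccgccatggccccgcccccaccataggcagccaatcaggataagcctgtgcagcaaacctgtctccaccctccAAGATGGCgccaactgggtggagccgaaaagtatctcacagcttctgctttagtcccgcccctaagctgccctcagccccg
Snrpn intron: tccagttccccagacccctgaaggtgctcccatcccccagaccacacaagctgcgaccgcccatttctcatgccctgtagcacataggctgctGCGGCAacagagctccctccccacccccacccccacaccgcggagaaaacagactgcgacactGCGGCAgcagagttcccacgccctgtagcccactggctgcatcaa
The Peg3 stretch held the YY1 letters in 2 places, and the Snrpn stretch held the ZFP57 letters in 2 places. Neither was the strongest region at its control region in the joint list. The stronger region at the Peg3 start held none of the motifs searched. The stronger region at the Snrpn start also held the ZFP57 letters in 2 places. The Kcnq1ot1 stretch held 6 CpG pairs and none of the motifs searched.

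The next pair carries the core letters of CTCF in capitals (CC, 4 bases of any kind, then GGNGGC, on either strand). One is the start of Nespas in the Gnas cluster (chr2:174295426-174295626), and the other is the strongest distal region near any of the 32 genes, between Magel2 and Mkrn3 (chr7:62400281-62400481). The last pair carries GATA letters (AGATAA or TGATAA, on either strand), the motif of GATA1, in capitals. It comes from introns of Grb10 (chr11:11973452-11973652) and Igf2r (chr17:12724106-12724306), which had no region at their starts in the joint list.
Nespas start: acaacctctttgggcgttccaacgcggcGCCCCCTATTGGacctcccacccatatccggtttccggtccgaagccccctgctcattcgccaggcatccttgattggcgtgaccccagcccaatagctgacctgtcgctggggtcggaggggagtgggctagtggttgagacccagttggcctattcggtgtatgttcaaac
between Magel2 and Mkrn3: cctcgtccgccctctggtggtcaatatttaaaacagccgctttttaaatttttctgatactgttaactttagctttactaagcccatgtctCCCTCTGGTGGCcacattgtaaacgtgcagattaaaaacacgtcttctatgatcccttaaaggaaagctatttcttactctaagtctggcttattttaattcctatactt
Grb10 intron: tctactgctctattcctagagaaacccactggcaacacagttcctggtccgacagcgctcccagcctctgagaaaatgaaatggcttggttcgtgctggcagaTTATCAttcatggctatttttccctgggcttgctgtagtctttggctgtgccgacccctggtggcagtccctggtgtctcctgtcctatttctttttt
Igf2r intron: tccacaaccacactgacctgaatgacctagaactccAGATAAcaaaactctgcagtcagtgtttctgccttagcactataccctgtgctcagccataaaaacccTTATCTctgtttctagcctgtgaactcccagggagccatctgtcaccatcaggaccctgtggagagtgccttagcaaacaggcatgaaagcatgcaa
A match of letters describes the sequence only and does not show that a protein was bound.

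Of the 32 genes, 10 had a promoter region, meaning a region of the joint list that overlapped the 1 kb on either side of any annotated start. That is 31.2% (95% Wilson interval 18 to 48.6%), against 33.8% of all genes, and the interval spans the background share. Among the protein-coding genes 9 of 25 (36%) had one, against 43.2% of all protein-coding genes. Among the noncoding genes only Kcnq1ot1 did, 1 of 7 (14.3%), against 12.9% of all noncoding genes. In the list of replicate 1, 9 of the 32 had a promoter region, against 30.6% of all genes. In that of replicate 2 it was also 9, against 31.6%. The genes were Kcnq1ot1, Peg3, Usp29, Snrpn, Mkrn3, Ube3a, Impact, Gnas and Zrsr1 in either replicate, while the region at Cd81 was in neither replicate's own list.

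The genes were also divided by the CpG content of their starts, a split chosen after the data were seen. A start was called CpG-rich where the observed count of CpG pairs in the 501 bp around it was at least 0.6 of that expected from its C and G content, and 23 of the 32 genes had such a start. Of these, 9 (39.1%, interval 22.2 to 59.2%) had a promoter region, against 66.3% of the 14204 genes with a CpG-rich start. The upper end of the interval lay below the background share. Of the 9 genes without a CpG-rich start, 1 (Peg3) had a promoter region (11.1%), against 7.61% of all such genes. The split follows GENCODE starts and takes the start of highest ratio in each gene. For Ndn the RefSeq start (GRCm38.p6) lies 1708 bp from the GENCODE one, has a ratio of 0.70 against 0 at the GENCODE start, and held no region of the joint or the looser list. With Ndn placed by its RefSeq start, 9 of 24 genes with a CpG-rich start had a promoter region (37.5%, interval 21.2 to 57.3%) and 1 of 8 without. Only Ndn was moved. Several genes counted as CpG-rich had a ratio below 0.6 at their RefSeq start, among them Igf2 (0.06), Impact (0.17), Dlk1 (0.30) and Usp29 (0.57). The split thus depends on which start stands for a gene. Genes of a cluster share regions, as Peg3 and Usp29 do, so the intervals cover counting error only and treat the genes as separate.

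**Figure D1:**
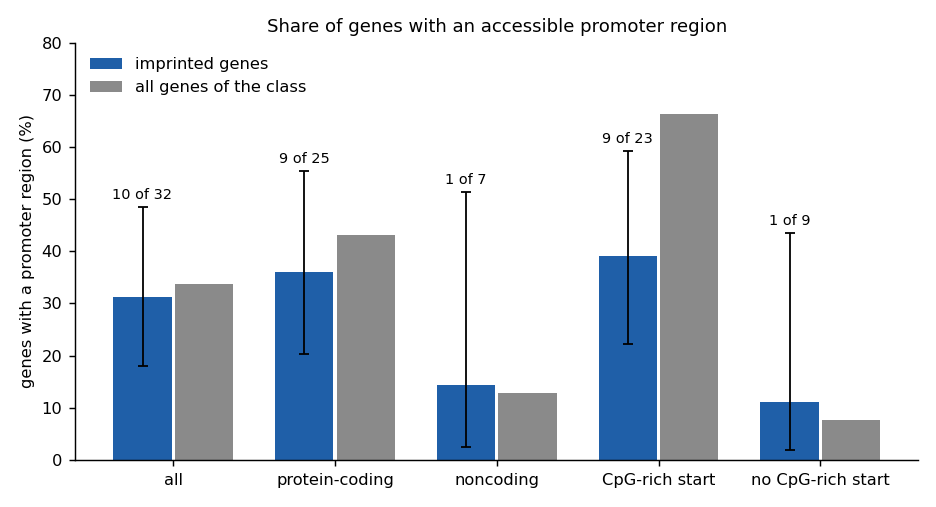
Percent of genes with a region of the joint list within 1 kb of a start (vertical axis), for the imprinted genes (blue, with 95% Wilson intervals) and for all genes of the same class (grey). The blue and grey bars are near each other for all genes, and in the CpG-rich class 39.1% of imprinted genes stand beside 66.3% of all genes.

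The 10 genes with a promoter region differed in signal, the authors' value per peak, whose scale is not given and which is used here only to describe regions within a list. The signal ran from 4.67 at the start that Peg3 and Usp29 share to 15.4 at Kcnq1ot1. The signals of a replicate come from its pseudoreplicated list before the IDR threshold, while its own list means the one that passed the threshold. Kcnq1ot1 had 13.6 in replicate 1 and 14.0 in replicate 2, the highest of the 10 in both. Ube3a, the gene of an E3 ubiquitin ligase that is imprinted in neurons and read from both chromosomes in most other tissues, had 12.1 and 12.3. Mkrn3, a makorin ring finger gene, had 10.0 and 9.63. Impact came between them, with 10.3 and 9.77. At the other end, Peg3 and Usp29 had 4.88 in replicate 1 and 4.48 in replicate 2, the lowest of the 10 in both. The median signal over the joint list was 10.7, and Kcnq1ot1, Ube3a, Mkrn3 and Impact lay above it. Over the promoter regions of that list alone the median was 12.5, and only Kcnq1ot1 and Ube3a lay above that.

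**Figure D2:**
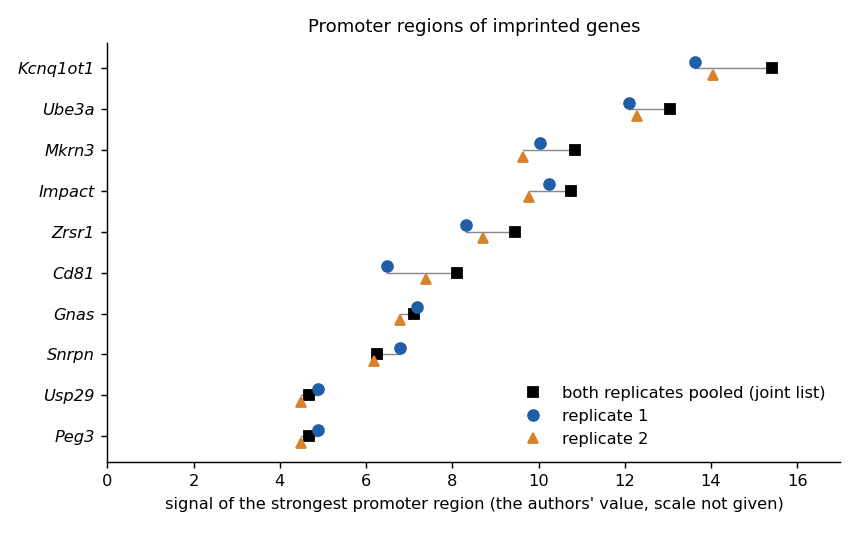
Signal of the strongest promoter region (horizontal axis, the authors' value) for the 10 imprinted genes that had one, in the joint list (squares), in replicate 1 (circles) and in replicate 2 (triangles). Kcnq1ot1 is highest and Peg3 and Usp29, which share a region, are lowest in both replicates.

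Of the 17 control regions placed by annotation, 8 held a region of the joint list. They were the starts of Kcnq1ot1, Peg3, Snrpn, Nespas, the Gnasxl transcript, Gnas exon 1A, Zrsr1 and the internal start of Impact. All 8 were among the 15 control regions that are single starts, of which 53.3% (interval 30.1 to 75.2%) held one, against 33.8% of all genes and 66.3% of genes with a CpG-rich start. The interval spans both shares, 10 of the 15 starts were CpG-rich, and a gene is counted over all its starts whereas a control region is 1 window. The other 9 control regions held none, and they were the starts of Peg10, Mest, Plagl1, Airn, Nnat and Peg13, the internal start of Grb10, the span 2 to 4 kb upstream of H19 and the interval between Dlk1 and Meg3. Replicate 1 had a region at 7 of the 17 and replicate 2 at 6. The looser list added the Airn start, with a signal of 5.10, and 1 region between Dlk1 and Meg3, with a signal of 2.87. Only the Kcnq1ot1 start exceeded the median signal of the joint list.

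At most of these 8 control regions the signal was low for the strength of evidence. The authors give each region a −log10 p beside its signal, and each region was set beside the promoter regions of any gene whose −log10 p was within 10% of its own, a comparison chosen after the data were seen. Of 10 regions at control-region starts, 9 lay below the median signal of such regions and 7 in the lowest 10%. At the shared start of Peg3 and Usp29 the signal was 4.67 with a −log10 p of 82.2, and of 1036 promoter regions of like −log10 p, 0 had a lower signal. Their median was 13.7. The region inside Peg3 had a signal of 3.61 with a −log10 p of 48.1, and of 919 like regions 0 were lower. The Nespas start had 7.04, with 26 of 937 like regions lower, and the Gnasxl start had 6.67, with 28 of 904 lower. Kcnq1ot1 was the exception, with 672 of 1093 like regions lower.

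The same comparison was made inside each replicate's own list. In replicate 1, 8 of the control-region regions were called, and 6 lay in the lowest 10% of promoter regions of like −log10 p. In replicate 2 it was again 6 of 8. Both Peg3 regions had 0 lower regions in either replicate, among 1145 and 930 like regions in replicate 1 and among 1029 and 803 in replicate 2. In the joint list, 6 of the 8 other promoter regions of imprinted genes lay below the median and 4 in the lowest 10%. In replicate 1 it was 4 and 3 of the 4 called, and in replicate 2 it was 5 and 3 of the 5 called. A low signal was thus not confined to the windows placed as control regions. The 4 in the joint list were at Ube3a, Gnas and Impact. Those at Impact (10.8 and 6.30) lay downstream of its internal start. The CpG ratio was 0.31 at that start and 0.73 around the summit of the 10.8 region. The placing of the Impact control region is therefore uncertain. What sets the signal beside the −log10 p was not tested.

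**Figure D3:**
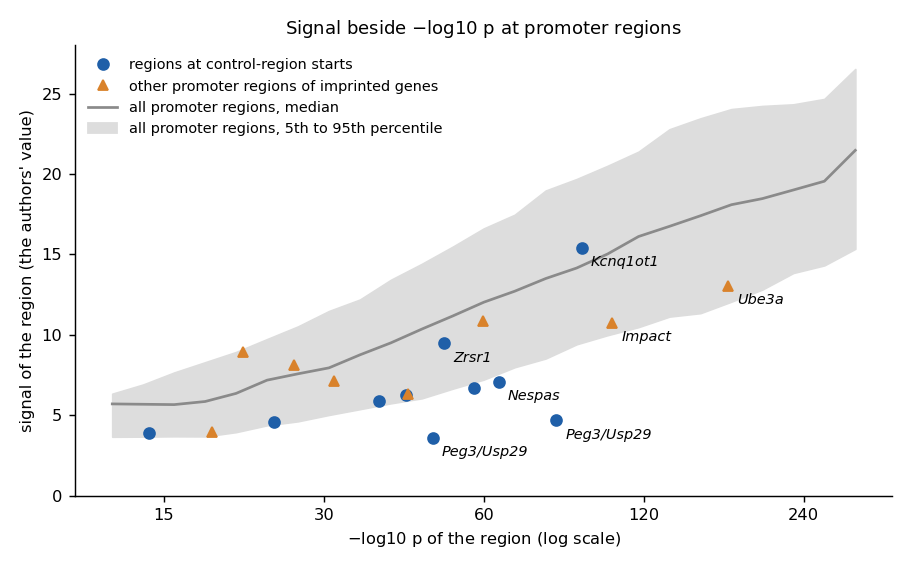
Signal (vertical axis) beside −log10 p (horizontal axis, log scale) for regions at control-region starts (circles) and other promoter regions of imprinted genes (triangles), with the median (line) and the 5th to 95th percentile (band) of all promoter regions of the joint list. Both Peg3/Usp29 regions lie below the band, with signals of 4.67 and 3.61, and Kcnq1ot1 lies near the line.

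In the H19 and Igf2 cluster, neither start had a region in the joint list. H19 is a maternally expressed noncoding RNA and Igf2 encodes a fetal growth factor made from the paternal copy. The span 2 to 4 kb upstream of H19 (chr7:142580143-142582143) held no region in any list, though it held the longer CTCF letters (CCGCG, 1 base of any kind, then GGNGGCAG) in 3 places. Only 2 regions lay within 50 kb of the 2 genes. One was the promoter of the neighbouring ribosomal protein gene Mrpl23, with a signal of 8.43 in the joint list and in neither replicate's own list. The other was a region 33.2 kb upstream of H19, between the 2 genes (chr7:142611117-142611541) and inside an intron of the annotated gene Gm33148. It had 9.27 in replicate 1 and 8.49 in replicate 2, and 10.5 in the joint list.

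In the Kcnq1ot1 domain, 9 regions lay within 50 kb of the 5 genes, over 453 kb. The Kcnq1ot1 region (chr7:143296378-143297012) lay inside an intron of Kcnq1, 61 bp upstream of the annotated start of the antisense RNA, and it was the only region near the body of that RNA. Cd81, a tetraspanin gene, had 6.47 in replicate 1 and 7.38 in replicate 2 at its start, below the IDR threshold in each replicate's own list. The starts of Cdkn1c, which encodes the cell cycle inhibitor p57, of Phlda2, a restrainer of placental growth, and of the transporter gene Slc22a18 held no region of the joint list. The looser list had a region of signal 5.82 at the start of Slc22a18, seen in replicate 2 alone (6.30). The nearest distal region of the joint list to Phlda2 lay 3.74 kb upstream, with 6.83 in replicate 1, 7.89 in replicate 2 and 9.40 in the joint list. It also fell within 50 kb of Cdkn1c and Slc22a18. The strongest distal region of Phlda2 and Slc22a18 (chr7:143533215-143533667) lay 30.3 kb upstream of Phlda2, in an intron of Nap1l4. It had 6.83 in replicate 1, 6.23 in replicate 2 and 9.56 in the joint list, and was in neither replicate's own list. The 1 distal region near Cd81 (chr7:143021872-143022105), 30.8 kb upstream, had 5.96 and 6.34 in replicates 1 and 2 and 7.10 in the joint list. It too was in neither replicate's own list. The strongest regions of the domain stood at genes outside the 32, namely Nap1l4 (21.2), a histone chaperone gene, and Tssc4 (16.1).

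The Dlk1 and Meg3 cluster had no region of the joint list over 397 kb, the longest such stretch among the 15 clusters. Dlk1 encodes a Notch-type ligand and Rtl1 a retrotransposon-derived protein, both made from the paternal copy. Meg3, Rian and Mirg are maternally expressed noncoding RNAs, and Rian and Mirg host small nucleolar RNAs and miRNAs. Neither replicate's own list had a region within 50 kb of any of the 5 genes, and the pseudoreplicated list of replicate 1 had 1, near Rian. The looser list held 1, 13.4 kb upstream of Meg3 (chr12:109527421-109527881), with a signal of 2.87, a −log10 p of 3.42 and no match in either library's list.

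The Snrpn domain, which in human corresponds to the Prader-Willi and Angelman syndrome region, had 8 regions. Snrpn, the gene of the splicing protein SmN, had 3 side by side around its downstream start (chr7:60002820-60005268). The region 28 bp upstream of that start had 5.88 in replicate 1, 6.17 in replicate 2 and 6.24 in the joint list. The intronic region whose sequence is given above had 6.80 and 4.84 in replicates 1 and 2 and 5.86 in the joint list. The third, of distal class and 1.91 kb inside the gene (chr7:60002820-60003348), had 5.87 and 5.96 in replicates 1 and 2 and 5.98 in the joint list. The outermost annotated start of Snrpn, 135 kb from these regions, held none. Ube3a had 1 region, 1033 bp wide and with the highest −log10 p of any promoter region of the 32 genes (173).

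Further along the domain, Mkrn3 had a promoter region, while the MAGE family genes Ndn and Magel2 did not. Between Magel2 and Mkrn3 stood the strongest distal region near any of the 32 genes (chr7:62400137-62400521), with 13.6 in replicate 1, 12.96 in replicate 2 and 16.6 in the joint list. Its signal exceeded 532 of 582 distal regions of like −log10 p. A region 5.60 kb downstream of the Magel2 start (chr7:62382462-62382736) had 8.21 and 10.4 in replicates 1 and 2 and 11.0 in the joint list. Both held the CTCF core letters, as did the promoter region of Peg12 (13.6 in the joint list), which held them in 2 places.

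Gnas, which encodes the stimulatory G protein alpha subunit and is read from several first exons, had 6 regions. The Nespas start (chr2:174295312-174295732), an antisense promoter, had 7.39 in replicate 1, 6.36 in replicate 2 and 7.04 in the joint list. The region 600 bp upstream of the Gnasxl start (chr2:174296997-174297580) had 6.61 and 5.76 in replicates 1 and 2, and 6.67 in the joint list. The exon 1A start was less certain. Its region in the joint list had a signal of 3.92 and a −log10 p of 14.0 and was in neither replicate's own list, while a neighbouring region of the looser list had 7.17 in replicate 1 and 4.72 in replicate 2. The strongest promoter region of Gnas lay 308 bp upstream of another start (chr2:174344106-174344476). It had 7.01 in replicate 1, 6.78 in replicate 2 and 7.12 in the joint list, and was in the own list of replicate 2 only. A weak region 488 bp past a further start had 3.61 and 4.13 in replicates 1 and 2 and 3.93 in the joint list, and was in neither replicate's own list. The strongest region of the gene was distal, in an intron 3.37 kb past the nearest start (chr2:174333319-174333814), with 12.4 in replicate 1, 11.0 in replicate 2, and 12.5 with a −log10 p of 112 in the joint list.

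In the Peg3 cluster, 3 adjoining regions ran from within Peg3, a paternally expressed zinc finger gene, to the start it shares with Usp29, a gene of the ubiquitin protease family. The regions spanned chr7:6727291-6730651 and were all in both replicates' own lists. The innermost, with its summit 1.82 kb inside Peg3, was 1751 bp wide, and 0% of the 9298 distal regions of the joint list were wider. It had 5.30 in replicate 1, 5.26 in replicate 2, and 5.34 with a −log10 p of 108 in the joint list. Of 249 distal regions of like −log10 p, 0 had a lower signal. Zim1, a maternally expressed zinc finger gene, had promoter regions in the looser list only, the strongest with a signal of 7.18. A region in an intron of Usp29, 6.63 kb upstream of a start (chr7:6940814-6941107), had 5.44 in replicate 1, 6.11 in replicate 2 and 5.71 in the joint list. It held the CTCF core letters. Its −log10 p in the joint list was 12.6, and it was in neither replicate's own list.

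**Figure D4:**
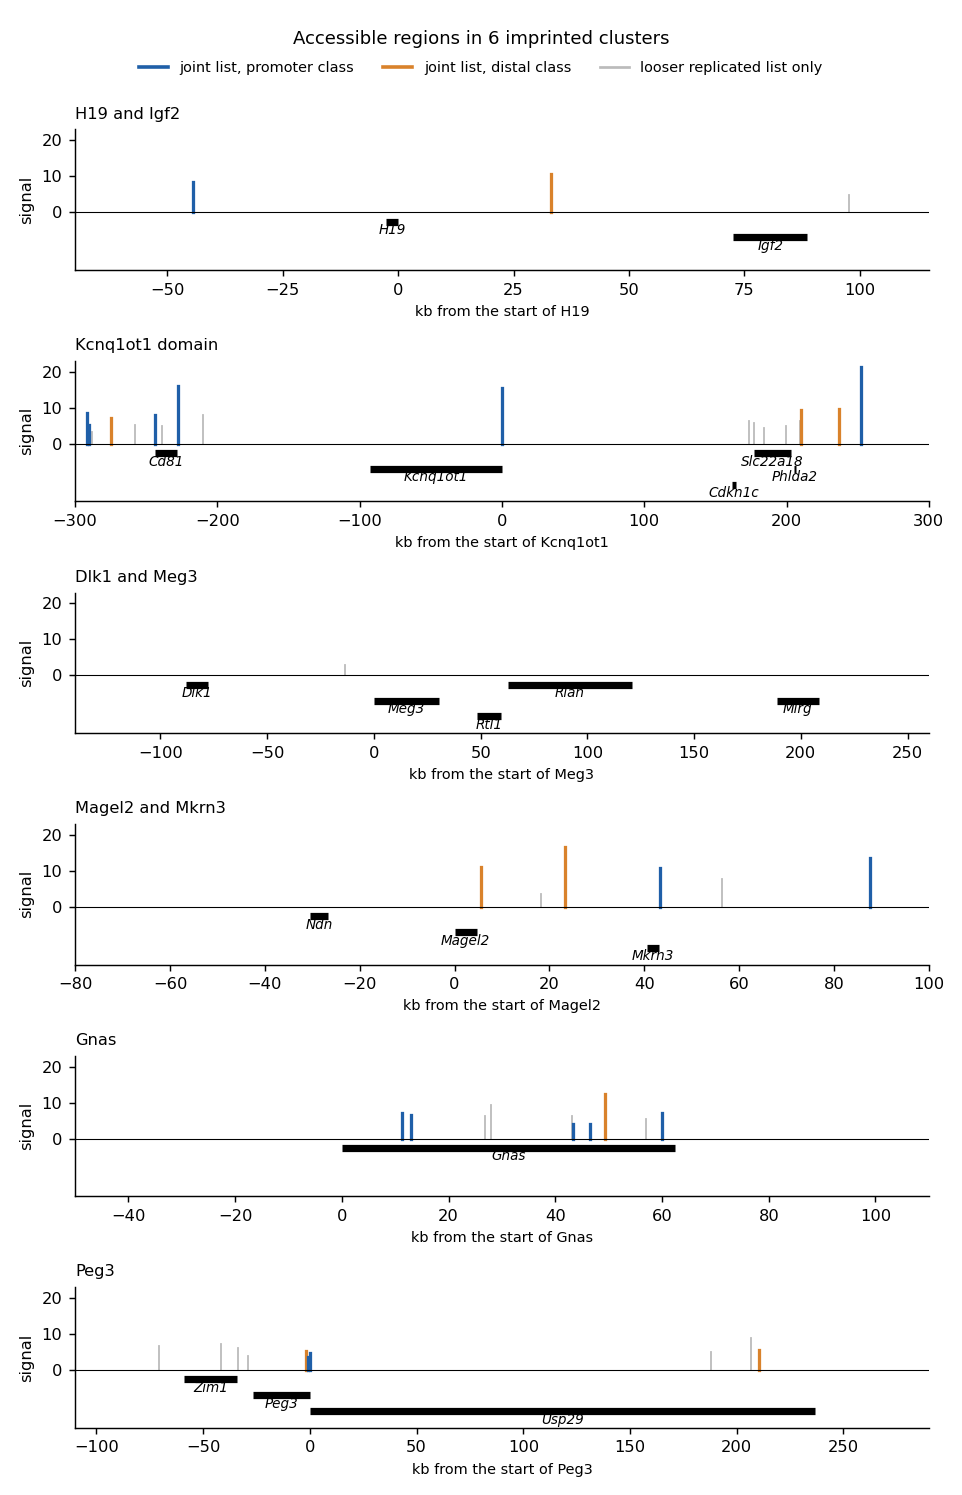
Accessible regions (vertical lines, height is the signal in the joint or the looser list) beside the imprinted genes (black bars) of 6 clusters, by distance in kb from the named start, with positive distances toward higher coordinates. Only regions within 50 kb of a gene of the 32 are drawn. The Dlk1 and Meg3 panel has no line of the joint list, and the Kcnq1ot1 line of 15.4 stands alone at the start of that RNA.

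At the single-gene loci, the values went from many regions to none. Impact, a gene that restrains the translation regulator GCN2, had 8 regions within 50 kb, and 4 of them overlapped the windows of its starts. The strongest had 10.3 in replicate 1, 9.77 in replicate 2 and 10.8 in the joint list, and its summit, 1007 bp from a start, puts it in the distal class. The outermost start had 8.93 in the joint list and the internal start 4.59, and both were in neither replicate's own list. Zrsr1, a retrogene for a splicing factor inside an intron of Commd1, also had 8 regions nearby. Its own start had 8.31 in replicate 1, 8.72 in replicate 2 and 9.46 in the joint list, and the region was 1287 bp wide, with 0.946% of promoter regions wider. Its 1 distal region (chr11:22965431-22965794), 6.41 kb upstream in an intron of Commd1, had 7.47 in replicate 1, 8.35 in replicate 2 and 9.94 in the joint list. The promoter of its host Commd1 had 13.8 and 13.9 in replicates 1 and 2 and 17.7 in the joint list.

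In the joint list, Grb10 and Igf2r had regions in their introns and none at their starts. Grb10, an adaptor that restrains growth factor signalling, had 6 distal regions, 5 of which were in the list of replicate 1 and 5 in that of replicate 2. The 2 strongest lay close together. One, chr11:11973315-11973761, had 9.79 in replicate 1, 10.4 in replicate 2 and 11.9 in the joint list. The other, chr11:11974916-11975202, had 10.1 and 8.90 in replicates 1 and 2 and 11.3 in the joint list. Of the 6, 4 lay in Grb10 introns and 2 at the neighbouring gene Ddc.

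Igf2r, the receptor that clears IGF2, and Airn, the paternal RNA that silences it, shared 5 distal regions. The strongest (chr17:12745718-12746176), 4.58 kb past an Airn start and inside both genes, had 8.06 in replicate 1, 11.3 in replicate 2 and 11.96 in the joint list. It was the only one of the 5 in the list of replicate 1, whereas all 5 were in that of replicate 2. The Igf2r region whose sequence is given above (chr17:12723942-12724444) had 11.1 in replicate 1, 8.93 in replicate 2 and 10.3 in the joint list. It was shown for its GATA letters, which the strongest of the 5 did not hold within 100 bases of its summit. At the Igf2r start the looser list had a region of 8.22, with 5.87 in replicate 1 and 7.84 in replicate 2. Its −log10 IDR between the true replicates was 1.27, just short of the 1.3 that the threshold asks, but the region was in the list of pooled pseudoreplicates. The region at the Airn start (5.10 in the looser list) had a −log10 IDR of 0.29.

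The remaining genes had little. Mest, a gene of the alpha/beta hydrolase fold, had no region at its start and a weak distal one 10.9 kb upstream (7.60 in the joint list). Nnat, the gene of neuronatin, lies in an intron of Blcap and had the Blcap promoter nearby (9.65), with none at its own start. Peg10, a retrotransposon-derived gene, its neighbour Sgce (epsilon-sarcoglycan), Plagl1, a zinc finger transcription factor gene, and the noncoding Peg13 had no region of the joint list within 50 kb. In the looser list each of these 4 had 1 or 2, all distal.

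Over all 32 genes, 23 had a region within 50 kb of the gene body, against 62.5% of all genes, and the 9 without were Dlk1, Meg3, Rtl1, Rian, Mirg, Peg10, Sgce, Plagl1 and Peg13. In the looser list 28 had one, against 73.6% of all genes, and 14 (43.8%) had a promoter region, against 38.6%. The genes had a median of 1 distal region within 50 kb and a mean of 1.31, against a median of 0 and a mean of 0.896 over all genes. In the list of replicate 1 the mean was 0.625, against 0.48 over all genes, and in that of replicate 2 it was 1.16, against 0.582. Counted once, 59 regions lay within 50 kb of the 32 genes, 32 of them with a summit within 1 kb of a start of any gene and 27 distal. This came to 1.63 regions per 100 kb, against 1.00 around all genes. Of the 59, 34 (57.6%, interval 44.9 to 69.4%) were in both replicates' own lists, against 60.7% of all regions. Replicate 2 alone had 11 more, replicate 1 alone 2, and 12 were in neither. Among the 27 distal regions 37% were in both, against 41.4% of all distal regions.

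**Figure D5:**
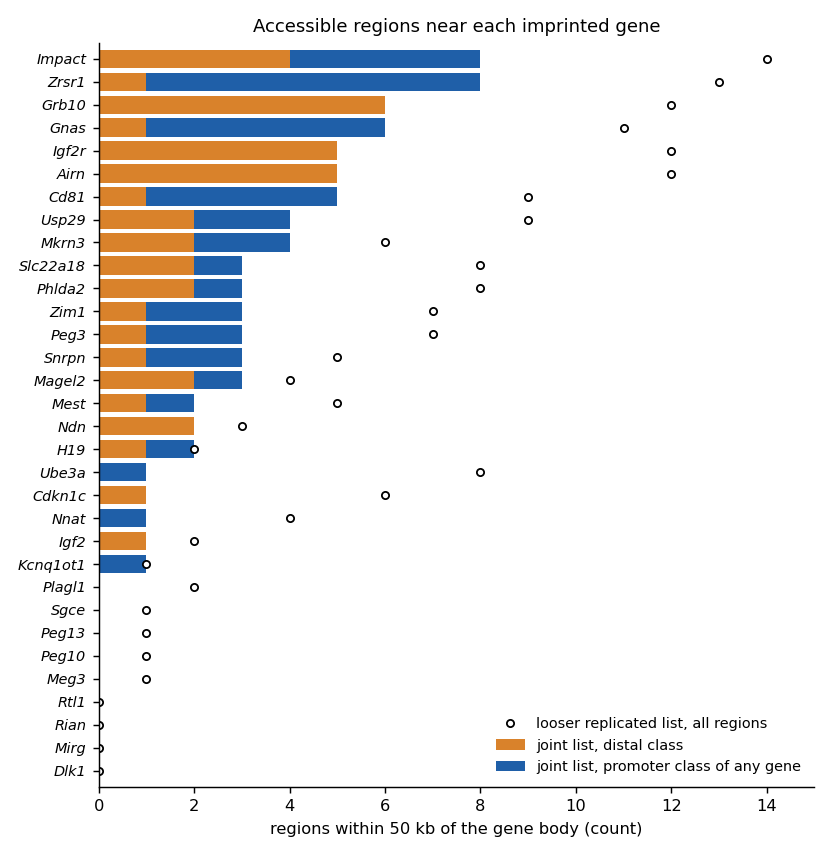
Number of regions within 50 kb of each of the 32 gene bodies (horizontal axis) in the joint list, split into distal (orange) and promoter class of any gene (blue), with the total in the looser list (open circles). Impact and Zrsr1 have 8 in the joint list and 9 genes have 0. Genes of a cluster share regions.

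Motif letters were counted within 100 bases of each summit. Among the 32 regions of promoter class, 12.5% held the CTCF core letters, against 14.4% of all promoter regions, 12.5% the ZFP57 letters, against 14.6%, and 3.12% the YY1 letters, against 3.95%. Among the 27 distal regions, 14.8% held the CTCF core letters, against 13.7% of all distal regions, and 37% the GATA letters, against 39.5%. The YY1 letters were in 1 of the 27 (3.70%, interval 0.657 to 18.3%), against 1.15% of all distal regions, and the interval spans that share. The ZFP57 letters were in 4 of the 27 (14.8%, interval 5.92 to 32.5%), against 4.39% of all distal regions. The 4 were the wide Peg3 region, a region of Impact whose summit lay 1007 bp from a start, one in Commd1 near Zrsr1 and one in Ddc near Grb10. None of the 59 held the longer CTCF letters, which were in 2 of 10782 promoter regions and 1 of 9298 distal regions. The CTCF and ZFP57 letters can share bases.

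Of 35 other imprinted genes written down from general knowledge, 20 (57.1%, interval 40.9 to 72.0%) had a promoter region, against 33.8% of all genes and 43.2% of protein-coding genes. Of the 28 with a CpG-rich start 17 had one (60.7%, interval 42.4 to 76.4%), against 66.3% of all such genes. The strongest were Inpp5f (20.1 in replicate 1, 20.96 in replicate 2 and 22.8 in the joint list), a phosphoinositide phosphatase gene, and Nap1l4 (18.03, 19.8 and 21.2 in the same order). Copg2, a coatomer subunit gene beside Mest, had 19.3 in the joint list, Ppp1r9a 18.04, and Commd1 17.7. Chrac1 had 17.6, Tssc4 16.1, Mcts2, which lies within H13, 15.7, Trappc9, the host of Peg13, 15.04, and Peg12 13.6. The other 10 were H13, Ddc, Blcap, Gab1, Tspan32, Ago2, Nespas, Casd1, Jade1 and Sfmbt2. Many of these are hosts or neighbours of the 32 genes and are known to be imprinted in some tissues only.

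Of 14 genes that set or keep imprints, 10 had a promoter region (71.4%, interval 45.4 to 88.3%), against 43.2% of protein-coding genes. Of the 12 with a CpG-rich start 10 had one (83.3%, interval 55.2 to 95.3%), and this interval spans the 66.3% of all such genes. Dnmt1, the maintenance DNA methyltransferase, had 18.6 in replicate 1, 16.4 in replicate 2 and 20.2 in the joint list. Arid4a and Arid4b had 16.2 each in the joint list, the histone methyltransferase gene Setdb1 15.6, and Zfp445 14.9. Uhrf1, the partner of DNMT1, had 13.5, Cbx5 13.1, Hells 11.2, Trim28 9.53 and Ctcf 7.46. The region at Ctcf was in neither replicate's own list, that of Setdb1 was in replicate 2 alone and that of Hells in replicate 1 alone. Zfp57, the de novo methyltransferase genes Dnmt3a and Dnmt3l, and the egg factor gene Dppa3 had none. The levels of these proteins were not measured.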

How the data were processed

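The files were peak lists of 2 ATAC-seq libraries of 1 group, on mm10 per the labels. No aligner, peak caller, read filter, shift of read ends or software version was named in the sources (not given in the sources used here). Per the labels and the deposited file list, the authors made lists per library, from pseudoreplicates and from the true replicates compared by IDR. The authors give each peak a signal, an enrichment value of unstated scale, and a −log10 p, and the deposited ranked list holds a score, the −log10 of the global IDR. These 7 lists were read: the joint list of true replicates (the main one), the list of pooled pseudoreplicates, the looser replicated list, and for each library its IDR list and its pseudoreplicated list. The IDR values came from the ranked list of true replicates, and the other deposited lists were not used. That list also has 8 columns of per-replicate values whose names tie them to no sample, and these were not used.

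Overlapping peaks were merged and the strongest summit stood for the region. Regions were tied to GENCODE M21 genes, and replicates were matched where at least 50% of the shorter region overlapped. The internal Grb10 start is that of transcript Grb10-209. Sequences came from the RefSeq copy of GRCm38, and motifs were exact letters on both strands. No p-values were computed. The Wilson 95% intervals cover counting error only. The calls of promoter and nearby regions were tested on simulated data. Python 3.11, pysam 0.24.0, SciPy 1.17.1, NumPy 2.4.6 and matplotlib 3.10.9 were used.

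All 32 genes are named, each with its strongest promoter and distal regions where it had any in the joint list; of the other lists, the genes with a promoter region are named, with values for the 10 strongest. The genes and lists were chosen with earlier results of these data known. The CpG split and the comparison of signal with −log10 p were chosen after the data were seen. Alternatives were another list, each replicate left out, stronger regions only, the RefSeq start of Ndn (added after the data were seen), and other windows, start sites, reaches, overlaps and motif windows.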

Additional observations from a re-analysis of the deposited data

How the results depend on the processing

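No paired analysis was possible because there was 1 group. With regions above the median signal of the joint list only, 4 of the 32 genes had a promoter region (10 in the whole list), 15 a region within 50 kb (23 in the whole list), 1 of 17 control regions held a region (8), 11 of 35 other imprinted genes had a promoter region (20), 18 distinct regions remained of 59, and the median number of distal regions per gene was 0 (1 in the whole list). The shares of all genes under this filter are not given here, so these lower counts cannot be set against a background. In the looser replicated list the distinct regions numbered 127 and the median number of distal regions was 3. With a reach of 20 kb that median was 0. Leaving out a replicate gave a median of 0 to 1, with 0 in the list of replicate 1, so the median rests on replicate 2 and on the reach. The share of the 59 regions found in both replicates was 96.6% when the pseudoreplicated lists before the IDR threshold stood in for the thresholded ones, against 57.6%. The promoter count was 10 with pooled pseudoreplicates, with a 500 bp window and with the summit rule, 8 with the outermost start only, and 9 with either replicate left out. With pooled pseudoreplicates the genes were not all the same, as Igf2r (8.22) had a promoter region and Cd81 had none. The share of distal regions with ZFP57 letters was 7.41% within 50 bases of the summit, against 14.8% within 100 bases. Over the whole region in place of 100 bases beside the summit, the promoter class held the ZFP57 letters in 43.8% (12.5% within 100 bases), the CTCF core in 28.1% (12.5%), GATA in 21.9% (9.38%) and YY1 in 9.38% (3.12%), and the distal class GATA in 55.6% (37%) and YY1 in 14.8% (3.70%). Within 50 bases, the CTCF core and GATA were each in 6.25% of the promoter class and YY1 in 0% of the distal class. Shares over all regions at these other windows are not given here, so these values cannot be set against a background. The lists carry no read counts, so weak regions below a threshold cannot be told from closed chromatin.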

Other observations

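Regions within 50 kb of the imprinted genes also stood at promoters of genes that are not among the imprinted genes listed. The promoter of Fam161a, 34.5 kb from the Zrsr1 start, had 15.4 in replicate 1, 16.0 in replicate 2, and 16.9 with a −log10 p of 138 in the joint list. Cct4, a chaperonin subunit gene 17.3 kb from that start, had 12.8 in replicate 1, 15.2 in replicate 2 and 16.4 in the joint list. The promoter of Cep41, 29.7 kb upstream of a Mest start that had no region of its own, had 15.3 in replicate 1, 14.0 in replicate 2 and 17.5 in the joint list. Osbpl1a, 14.0 kb upstream of Impact, had 8.99 in replicate 1 and 8.35 in replicate 2 at its promoter, and 10.0 in the joint list.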
